A study of Mus musculus with 18 samples.

Results

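The genes described here are 10 of the 16314 gene symbols counted by bulk RNA-seq, chosen by name: the cathepsins *Ctsa*, *Ctsc*, *Ctse*, *Ctsf*, *Ctsh*, *Ctsl* and *Ctsz*, the gene of legumain (*Lgmn*), and the genes of the protease inhibitors cystatin C (*Cst3*) and cystatin B (*Cstb*). They were measured in bone marrow-derived macrophages (BMDMs) of *Prep*-/- mice, which lack prolyl endopeptidase (PREP), and of *Prep*+/- littermates on a C57BL6/J background, so that the comparison group is heterozygous and not wild type. The age of the mice is not given in the sources used here. Femoral bone marrow cells of both genotypes were grown for 7 days with 50 ng/ml M-CSF. They were left unstimulated (M0), stimulated for 24 h with 50 ng/ml LPS (M1), or given IL-4 and IL-13 for 24 h (M2), each at 20 ng/ml. Each of these 6 groups has 3 biological replicates. In such cultures, fewer cells of a type and less RNA per cell cannot be told apart.

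Cathepsins are proteases that work mainly in the acidic compartments of the endosome and lysosome, where they degrade proteins and trim antigens. Most are cysteine proteases made as inactive precursors, cathepsin E is an aspartic protease, and cathepsin A is a serine carboxypeptidase. Legumain, an asparaginyl endopeptidase, cleaves after asparagine and processes several cathepsins. Cystatins bind cysteine cathepsins tightly. Cystatin C is secreted and also inhibits legumain, while cystatin B stays inside the cell. Macrophages are known for a high content of these enzymes, and LPS and IL-4 are both known to change it.

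The total count lay between 19068237 and 22598279 per library. The targeted gene *Prep* held 551 to 900.0 normalized counts (counts scaled with TMM factors to a common library size) over the *Prep*+/- libraries and 31.3 to 68.1 over the *Prep*-/- libraries. Replicate 3 of the *Prep*-/- M0 group and replicate 3 of the *Prep*-/- M2 group stood apart from the other replicates of their groups: pairs that held 1 of them gave a chi-square per degree of freedom of 111 to 120, against 9.87 to 49.1 in the other pairs. Values without them are given with the results of both groups. All 8 macrophage markers listed were detected, with a summed level of 10027 to 48180 CPM (the share of a TMM-scaled library total, on the usual CPM scale). None of the 5 erythroid markers in the table exceeded 3 counts in a library, and the T cell list and the mast cell and basophil list stayed below 1 CPM.

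Per length of transcript, *Cst3* had the highest level of the 10 genes, with a median over the 18 libraries of 1016 CPM per kb of its longest annotated transcript. It was followed by *Cstb* with 600 CPM per kb, *Ctsz* with 570.4, *Ctsl* with 566, *Lgmn* with 314, *Ctsa* with 232, *Ctsc* with 115 and *Ctsh* with 84.6 CPM per kb. *Ctsf* lay far lower with 3.98 CPM per kb and *Ctse* was nearly silent with 0.110 CPM per kb. The order depends on length: by CPM alone, *Ctsl* came first with a median of 3491 CPM and *Cst3* held rank 4 with 1019 CPM. Together the 10 genes took 0.803% to 0.853% of all counts in the *Prep*+/- M0 libraries and 1.14% to 1.26% in the *Prep*-/- M2 libraries, the group with the highest share.

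On the mouse genome GRCm39, 3 of the 10 genes lie on chromosome 2: *Ctsa* at chr2:164674778-164682961, *Cst3* at chr2:148713635-148717887 and *Ctsz* at chr2:174267304-174280832. *Ctse* lies at chr1:131566009-131603243, *Ctsc* at chr7:87927092-87960096, *Ctsh* at chr9:89936205-89958148 and *Cstb* at chr10:78261499-78263991. *Lgmn* is at chr12:102359122-102414682, *Ctsl* at chr13:64507151-64518704 and *Ctsf* at chr19:4905118-4915986. All are annotated as protein coding, and the ranges cover exons and introns. *Ctsa* overlaps *Pltp* and *Neurl2* on the other strand, and 108 of its 1476 coding bases are shared with *Pltp*. *Ctsz* overlaps *Nelfcd* and *Ctsf* overlaps *Actn3* in the same way. The kit was stranded but whether the counting used strand is not given in the sources used here, so reads of these pairs may not be fully separated.

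RefSeq promoter windows, which cover 250 bases before and 50 bases after an annotated start of transcription, were at hand for 7 of the 10 genes (9 windows, GRCm38.p6, a build other than that of the counts). *Ctse*, *Ctsh* and *Cstb* have no window. The palindrome CACGTG, the core of the E-box that transcription factors of lysosomal genes are known to bind, occurred in 4 of the 9 windows, of *Ctsa*, *Ctsf*, *Ctsl* and *Lgmn*, and in 7.15% of all 32851 windows. These windows are shown because they share that motif although, as described further on, *Ctsf* and *Lgmn* were higher in *Prep*-/- M0 BMDMs and *Ctsl* and *Ctsa* were not. Capitals mark CACGTG, and each window reads 5′ to 3′ on the strand of its gene, *Ctsa* at chr2:164833523-164833822 (plus strand), *Ctsf* at chr19:4854915-4855214 (plus), *Ctsl* at chr13:64370471-64370770 (minus) and the second of the *Lgmn* windows at chr12:102439043-102439342 (minus).
Ctsa: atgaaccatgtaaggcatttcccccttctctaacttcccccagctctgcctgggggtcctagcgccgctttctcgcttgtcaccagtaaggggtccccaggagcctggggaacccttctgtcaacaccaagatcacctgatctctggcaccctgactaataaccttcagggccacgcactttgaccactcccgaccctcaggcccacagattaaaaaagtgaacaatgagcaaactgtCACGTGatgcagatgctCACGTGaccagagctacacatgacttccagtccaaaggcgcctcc
Ctsf: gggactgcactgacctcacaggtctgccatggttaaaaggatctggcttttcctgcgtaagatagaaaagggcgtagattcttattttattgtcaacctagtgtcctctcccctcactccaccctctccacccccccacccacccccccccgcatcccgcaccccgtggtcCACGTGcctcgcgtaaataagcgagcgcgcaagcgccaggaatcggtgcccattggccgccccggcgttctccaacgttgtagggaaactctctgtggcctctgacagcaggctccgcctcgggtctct
Ctsl: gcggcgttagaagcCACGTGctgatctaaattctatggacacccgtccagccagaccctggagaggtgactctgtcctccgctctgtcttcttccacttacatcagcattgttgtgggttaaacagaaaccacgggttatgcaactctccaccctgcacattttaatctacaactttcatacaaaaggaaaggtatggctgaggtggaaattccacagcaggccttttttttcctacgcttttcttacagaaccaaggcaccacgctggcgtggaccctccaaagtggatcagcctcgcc
Lgmn: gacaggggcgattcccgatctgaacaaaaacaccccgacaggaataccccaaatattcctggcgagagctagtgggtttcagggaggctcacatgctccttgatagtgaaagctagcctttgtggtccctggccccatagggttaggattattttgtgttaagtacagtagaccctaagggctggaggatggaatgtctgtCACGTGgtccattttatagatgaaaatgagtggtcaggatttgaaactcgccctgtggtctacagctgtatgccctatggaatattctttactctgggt

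In these windows CACGTG began 12 bases before and at base 6 after the start in *Ctsa*, 79 bases before it in *Ctsf*, 49 in *Lgmn* and 236 in *Ctsl*. Searches on both strands found the PU.1 core GAGGAAGT, an element of myeloid promoters, in 1 member, *Ctsc*, and in 3.20% of all windows. The *Ctsc* window (chr7:88277835-88278134, plus strand) is shown because *Ctsc* was the member with the highest rise on LPS in *Prep*+/- BMDMs, and its capitals mark that core, which lies on the opposite strand and begins 151 bases before the start.
Ctsc: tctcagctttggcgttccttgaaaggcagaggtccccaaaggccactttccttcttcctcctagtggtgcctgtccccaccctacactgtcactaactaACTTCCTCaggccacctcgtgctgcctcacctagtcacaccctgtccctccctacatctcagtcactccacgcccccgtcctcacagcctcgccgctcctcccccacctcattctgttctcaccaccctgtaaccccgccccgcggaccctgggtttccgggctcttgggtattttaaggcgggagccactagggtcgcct

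The ETS core CCGGAAGT (3.89% of all windows), the AP-1 motif TGANTCA (7.81%), the palindromic STAT6-type motif (6.95%) and the interferon response motif (3.44%) were in none of the 9 windows. Matches of these motifs can share letters with one another. A match is a run of letters and was not tested as a binding site.

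**Figure D1:**
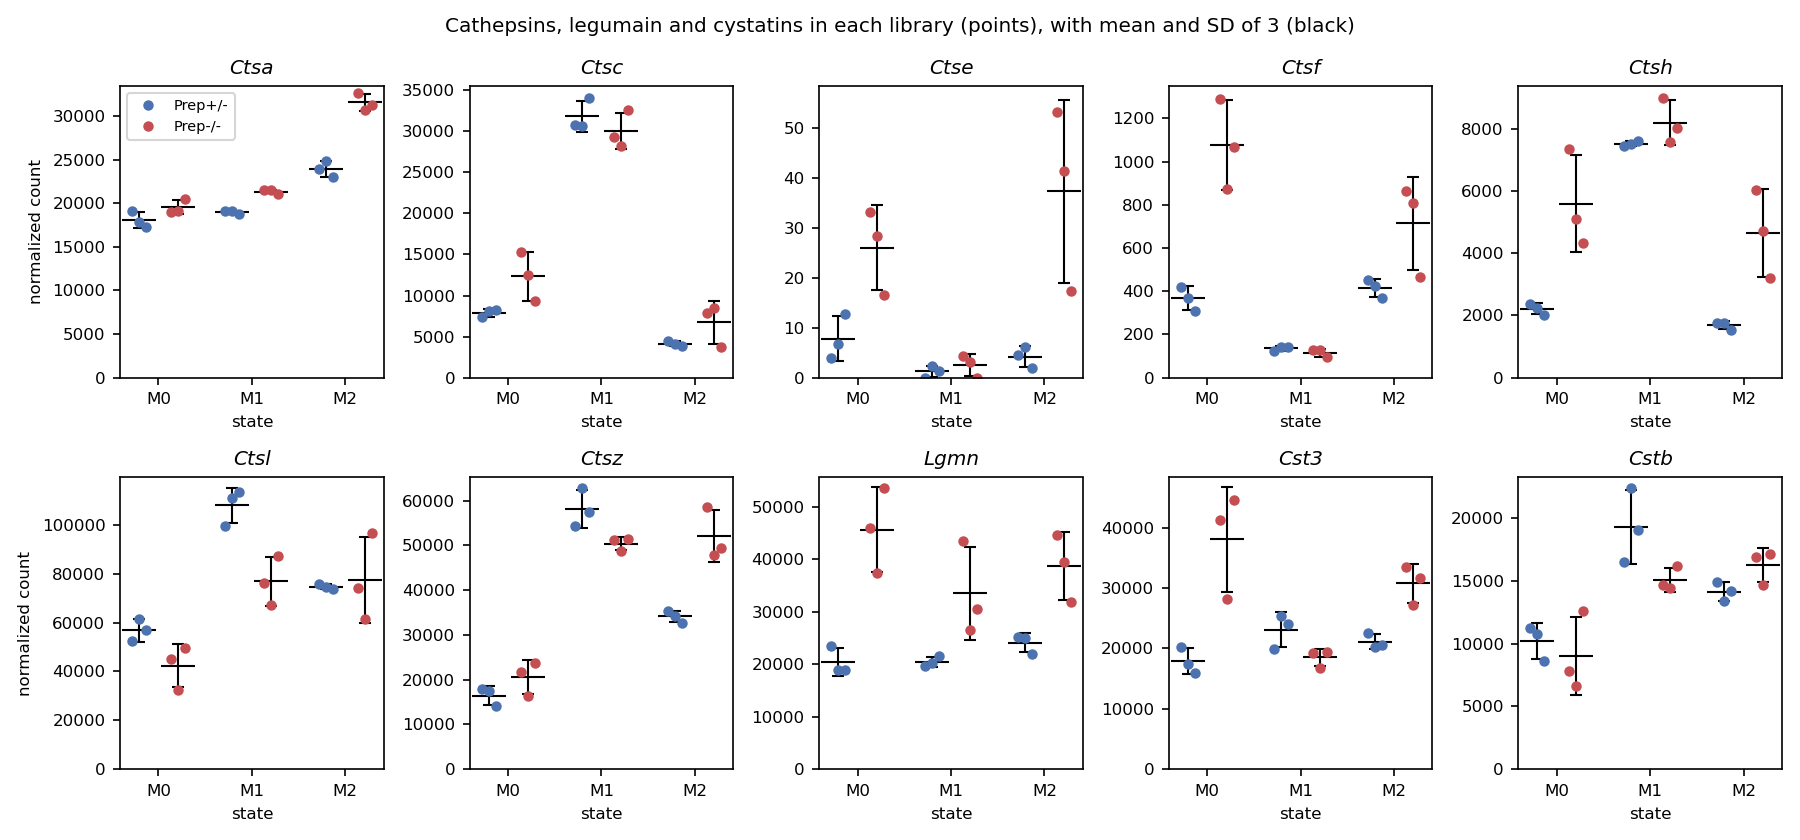
Normalized counts of each gene (vertical axis, from 0) in each library (points), by state (horizontal axis) and genotype, with the mean and SD of 3 libraries in black. *Lgmn* was higher in every *Prep*-/- library than in the *Prep*+/- libraries of the same state, *Ctsf* was lowest in M1 of both genotypes, and the *Prep*-/- points of *Ctsc*, *Ctsh* and *Cst3* in M0 spread more widely than the *Prep*+/- points.

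Knockout of *Prep* was compared with the heterozygous state within M0, M1 and M2 to see which of these genes depend on the genotype. *Ctse* passed the filter on low counts only through *Prep*-/- groups, so it had to differ, and it is described by its levels with no test and left out of the counts. In M0 BMDMs, 5 of the 9 other genes were higher in *Prep*-/- cells: *Ctsf*, *Ctsh* and *Ctsc* among the cathepsins, *Lgmn*, and *Cst3*. In M1 BMDMs only *Lgmn* was, and in M2 BMDMs 5 of the 9 were: *Ctsh*, *Ctsf*, *Ctsc*, *Ctsz* and *Lgmn*. None of the 9 was lower at the criteria used, an adjusted p under 0.05 (edgeR's quasi-likelihood test) and a fold change over 1.5. Without the fold criterion *Ctsl* was lower in M0 and in M1.

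Against these counts, 15.4% of the 12021 genes tested were higher in *Prep*-/- M0 BMDMs and 17.2% were lower. For M1 these shares were 12.3% and 10.2%, and for M2 they were 6.37% higher against 9.82% lower. The median log2 fold change over the 9 genes was 0.65 in M0 and 0.61 in M2, where the median of all genes tested was 0.02 and 0.03. In M1 it was -0.21 against 0.04 over all genes. Unadjusted p-values under 0.05 with a lower level were found for *Ctsl* alone in M0, for *Ctsl* alone in M1 and for 0 genes in M2, and DESeq2 called 0 genes lower in each state. When the fold change itself was tested against 1.5 (edgeR's glmTreat), 4 of the 9 genes were higher in M0, 0 in M1 and 1 in M2. Without the libraries that stood apart, the counts were 5 higher in M0 and 5 higher in M2. Without *Prep*-/- M2 replicate 1, the M2 count was 1, *Ctsh*.

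**Figure D2:**
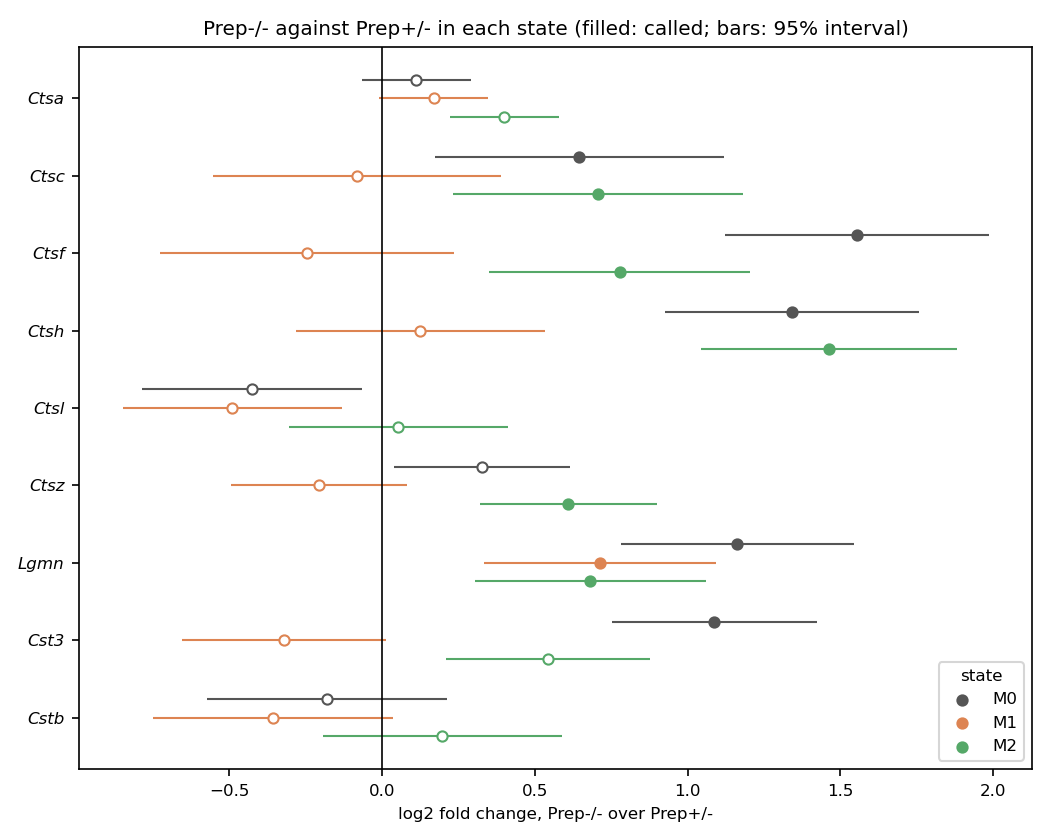
Log2 fold change of *Prep*-/- over *Prep*+/- BMDMs (horizontal axis) of each gene but *Ctse* (rows) in M0, M1 and M2, with 95% intervals from the fit to all 18 libraries. Filled points passed both criteria. *Ctsf*, *Ctsh* and *Cst3* lay near or above 1 in M0 and close to or below 0 in M1, while *Lgmn* lay above 0 in all 3 states.

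*Ctsh* encodes an aminopeptidase of the lysosome, which removes residues from the start of peptides. Its normalized counts were 2365, 2242 and 2019 in the *Prep*+/- M0 libraries and 7360, 5107 and 4339 in the *Prep*-/- M0 libraries, which did not overlap. The log2 fold change was 1.34 ± 0.20 (SE, n = 3 per group, adjusted p = 4.79e-05). In M2 the *Prep*+/- libraries held 1761, 1763 and 1537 and the *Prep*-/- libraries 6030, 4713 and 3210, again without overlap. That difference was 1.46 ± 0.20 on the log2 scale (adjusted p = 8.01e-05). In M1 both genotypes reached a similar level, 7450, 7525 and 7608 against 9011, 7592 and 8026 in *Prep*-/-, and the groups overlapped (0.13 ± 0.19, adjusted p = 0.635). The 95% interval of the M1 difference ran from -0.28 to 0.53. The M0 and M2 calls were kept under every alternative, with 1.48 in M0 and 1.68 in M2 without the libraries that stood apart.

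*Ctsc* encodes dipeptidyl peptidase I, which activates serine proteases of granules by removing a dipeptide. *Prep*+/- libraries held 7348, 8086 and 8264 normalized counts in M0. Their M1 values were 30810, 30647 and 34019 and their M2 values 4409, 4116 and 3809. All M1 values lay above all M0 values and all M2 values below them. *Prep*-/- M0 libraries held 15318, 12443 and 9312, above the *Prep*+/- M0 libraries (0.65 ± 0.22, adjusted p = 0.0251). Those of *Prep*-/- M2 held 7927, 8454 and 3765, and the third lay below all *Prep*+/- M2 libraries, so that the groups overlapped (0.71 ± 0.22, adjusted p = 0.0297). In M1 the *Prep*-/- values of 29306, 28275 and 32554 overlapped with the *Prep*+/- values (-0.08 ± 0.22, adjusted p = 0.793).

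Both knockout calls of *Ctsc* were close to the threshold. In M0 the adjusted p was 0.0725, 0.0669 and 0.0560 without *Prep*+/- replicate 1, 2 and 3, and 0.129 and 0.0503 without *Prep*-/- replicate 1 and 2. In M2 it was 0.0560, 0.0870 and 0.0938 without *Prep*+/- replicate 1, 2 and 3, and 0.130 and 0.134 without *Prep*-/- replicate 1 and 2. Without the libraries that stood apart, the values were 0.80 (adjusted p = 0.00867) in M0 and 1.01 (adjusted p = 1.03e-04) in M2. With the replicate number as a block and only the M2 libraries in the fit, the M2 difference was 0.63 (adjusted p = 0.0675), and without the block it was 0.71 (adjusted p = 0.115).

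*Ctsz* encodes cathepsin Z, a carboxypeptidase that removes residues from the end of peptides. In M2 the *Prep*+/- libraries held 35273, 34298 and 32754 counts against 58673, 47949 and 49496 of the *Prep*-/- libraries, without overlap (0.61 ± 0.14, adjusted p = 0.00387). The fold was just over the criterion: it fell under it without *Prep*+/- M2 replicate 2 (0.58) and without *Prep*-/- M2 replicate 1 (0.51), and it was 0.66 without replicate 3. In M0 the values of 17837, 17352 and 14005 in *Prep*+/- and 21651, 16414 and 23611 in *Prep*-/- overlapped (0.33 ± 0.14, adjusted p = 0.0581, and 0.20 without replicate 3). In M1 the *Prep*-/- libraries (51165, 48642 and 51419) all lay below the *Prep*+/- libraries (54300, 62725 and 57439), but the difference did not pass the test (-0.21 ± 0.14, adjusted p = 0.246).

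*Ctsa*, the carboxypeptidase also known as protective protein, which holds β-galactosidase and neuraminidase 1 in a complex, was the steadiest of the 10 genes. Its highest group mean was 1.75 times its lowest. In M2 it was 23981, 24800 and 22996 in *Prep*+/- and 32678, 30742 and 31314 in *Prep*-/- libraries, with no overlap. This difference of 0.40 ± 0.08 passed the adjusted p (0.00244) and not the fold criterion, and was 0.42 without *Prep*-/- M2 replicate 3. In M0 the values ran from 17302 to 19129 in *Prep*+/- and from 19013 to 20477 in *Prep*-/-, and in M1 from 18805 to 19119 and from 21099 to 21476 (0.11, adjusted p = 0.286, and 0.17, adjusted p = 0.127). Without *Prep*-/- M0 replicate 3 the M0 value was 0.07.

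*Ctsl* encodes cathepsin L, an endopeptidase that cuts within proteins, and had the highest median CPM of the 10 genes over the 18 libraries. In *Prep*-/- M0 alone, the mean of *Lgmn* was higher (45689 against 42378 normalized counts). In M0 the *Prep*+/- libraries held 52312, 61642 and 56800 normalized counts and the *Prep*-/- libraries 44925, 32545 and 49664, all of them lower. In M1 the values were 99701, 111015 and 113321 against 76164, 67090 and 87404, also without overlap. Both differences passed the adjusted p but not the fold criterion, with -0.43 ± 0.17 in M0 (adjusted p = 0.0479) and -0.49 ± 0.17 in M1 (adjusted p = 0.0333). The M0 value was -0.26 (adjusted p = 0.212) without *Prep*-/- M0 replicate 2 and -0.57 (adjusted p = 0.0133) without replicate 3, and the M1 value passed both criteria without *Prep*-/- M1 replicate 3 (-0.60). In M2 the *Prep*-/- libraries, 74121, 61673 and 96685, lay on both sides of the *Prep*+/- libraries, 75914, 74551 and 73670 (0.05 ± 0.17, adjusted p = 0.858), and without replicate 3 the value was -0.12.

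*Ctsf* is the gene of the endopeptidase cathepsin F. The *Prep*+/- M0 libraries held 422, 369 and 310.5 counts against 1290, 875 and 1068 of the *Prep*-/- M0 libraries, and the lowest *Prep*-/- library was above the highest *Prep*+/- library. The log2 fold change was 1.55 ± 0.20 (adjusted p = 1.91e-05), and 1.55 without *Prep*-/- M0 replicate 3. In M2 it was 454, 424 and 369.97 against 865, 809 and 468, still without overlap, and smaller (0.78 ± 0.20, adjusted p = 0.00996). The M2 call was lost without *Prep*-/- M2 replicate 1 (0.61, adjusted p = 0.0672) and with only the M2 libraries in the fit (adjusted p = 0.0518), and was 1.02 without *Prep*-/- M2 replicate 3, the lowest and the one that stood apart. In M1 both genotypes were low, 123, 143 and 144 against 125, 126 and 93.7 (-0.25 ± 0.23, adjusted p = 0.413).

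*Ctse*, the aspartic protease cathepsin E, is the member with hardly any transcript. *Prep*+/- libraries reached at most 0.601 CPM, and *Prep*-/- libraries held 0.784 to 1.57 CPM in M0 and 0.815 to 2.52 CPM in M2, the groups through which the gene passed the filter. *Prep*+/- libraries held 3.86, 6.68 and 12.7 normalized counts in M0 and 4.51, 6.21 and 1.89 in M2. *Prep*-/- libraries held 33.1, 28.3 and 16.6 in M0 and 53.2, 41.3 and 17.2 in M2, above every *Prep*+/- library. In M1 the *Prep*+/- libraries had 0 to 2 counts and the *Prep*-/- libraries 0 to 4, too few for a fold. No fold change or test is given for this gene, apart from a fitted range in the closing section that cannot be read as a fold.

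*Lgmn* was the only member higher in *Prep*-/- BMDMs in all 3 states. The *Prep*+/- M0 libraries held 23455, 18894 and 18840 counts against 45977, 37416 and 53674 of the *Prep*-/- M0 libraries (1.16 ± 0.18, adjusted p = 7.98e-05). In M1 they were 19648, 20179 and 21499 against 43477, 26518 and 30601 (0.71 ± 0.18, adjusted p = 0.00628). In M2 they were 25292, 25063 and 22047 against 44697, 39591 and 31892 (0.68 ± 0.18, adjusted p = 0.0107). In no state did the genotypes overlap. The M0 call was kept under every alternative, with 1.02 without the library that stood apart. The M1 value rested on *Prep*-/- M1 replicate 1, without which it was 0.47 (adjusted p = 0.0667). The M2 call was lost without *Prep*+/- M2 replicate 3 (adjusted p = 0.0556) and without *Prep*-/- M2 replicate 1 (adjusted p = 0.0696), and was 0.82 without *Prep*-/- M2 replicate 3.

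The inhibitors differed from each other. *Cst3* held 20316, 17433 and 16001 normalized counts in *Prep*+/- M0 libraries and 41363, 28192 and 44663 in *Prep*-/- M0 libraries, without overlap (1.09 ± 0.16, adjusted p = 4.71e-05, and 0.94 without *Prep*-/- M0 replicate 3). In M2 the values of 22588, 20200 and 20561 against 33545, 27158 and 31658 were also apart, and the difference of 0.54 ± 0.16 (adjusted p = 0.0188) was under the fold criterion, which it passed without *Prep*+/- M2 replicate 1 (0.60) and without *Prep*-/- M2 replicate 2 (0.63), while it was 0.54 without replicate 3. In M1 the *Prep*-/- libraries, 19269, 16820 and 19446, were all below the *Prep*+/- libraries, 19899, 25434 and 24058, a difference that did not pass the test (-0.32 ± 0.16, adjusted p = 0.119). *Cstb* did not pass in any state. Its counts in M0 were 11280, 10750 and 8614 against 7808, 6656 and 12578, with replicate 3, the *Prep*-/- library that stood apart, the only one above all *Prep*+/- libraries (-0.18 ± 0.19, adjusted p = 0.444), and without it the difference was -0.51 (adjusted p = 0.00861). In M1 it was 16492, 22421 and 19024 against 14678, 14408 and 16193 (-0.36, adjusted p = 0.143), and in M2 14934, 13362 and 14173 against 16871, 14679 and 17158 (0.20, adjusted p = 0.474, and 0.17 without *Prep*-/- M2 replicate 3).

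Marker lists moved with the genotype in part. In M0 the summed macrophage list was 19002 to 22408 CPM in *Prep*+/- and 30386 to 48180 CPM in *Prep*-/- libraries, and in M1 it was 45757 to 47208 against 31000 to 37043 CPM. For M2 the same sum was 10027 to 12203 CPM against 13889 to 19565 CPM. The 7 granulocyte precursor markers, all detected, summed to 17.2 to 22.3 CPM in *Prep*+/- M0 and 35.95 to 83.8 CPM in *Prep*-/- M0, with the highest value in replicate 1, where *Ctsc*, *Ctse*, *Ctsf* and *Ctsh* were highest as well. In M2 this list was 10.7 to 12.7 against 14.1 to 22.5 CPM, and in M1 22.5 to 39.1 against 17.4 to 24.3 CPM. The 3 B cell markers in the table of 5 listed summed to 3.01 to 4.79 CPM in *Prep*+/- M0 and 8.66 to 11.5 CPM in *Prep*-/- M0, with 1 of them over 3 counts in M0. The defining B cell gene *Pax5* was at 0 or not in the table. Dendritic cell markers summed to 0.200 to 0.501 CPM in *Prep*+/- M0 and 0.969 to 1.42 CPM in *Prep*-/- M0, and stromal markers to 12.2 to 15.6 against 0.323 to 15.5 CPM. The part of these differences in the results above was not tested.

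Stimulation was compared with M0 within each genotype, with the M0 libraries shared by the M1 and the M2 comparison. On LPS, *Prep*+/- BMDMs raised 5 of the 9 genes counted (all but *Ctse*), namely *Ctsc*, *Ctsz*, *Ctsh*, *Ctsl* and *Cstb*, and lowered *Ctsf*. *Prep*-/- BMDMs raised 4, *Ctsz*, *Ctsc*, *Ctsl* and *Cstb*, and lowered 2, *Ctsf* and *Cst3*. On IL-4 and IL-13, *Prep*+/- BMDMs raised *Ctsz* and lowered *Ctsc*, while *Prep*-/- BMDMs raised *Ctsz*, *Ctsl*, *Cstb* and *Ctsa* and lowered *Ctsc* and *Ctsf*. Of all genes tested, 16.7% rose on LPS in *Prep*+/- BMDMs and 20.9% fell, while for *Prep*-/- BMDMs 20.9% rose and 21% fell. With IL-4 and IL-13, 6.09% rose and 6.77% fell in *Prep*+/- BMDMs, against 14.7% and 15.5% for *Prep*-/- BMDMs. The median log2 fold change of the 9 genes on LPS was 0.92 in *Prep*+/- and 0.55 in *Prep*-/- BMDMs (all genes -0.03 and 0.000444), and on IL-4 and IL-13 it was 0.24 and -0.24 (all genes -0.01 and -0.02).

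**Figure D3:**
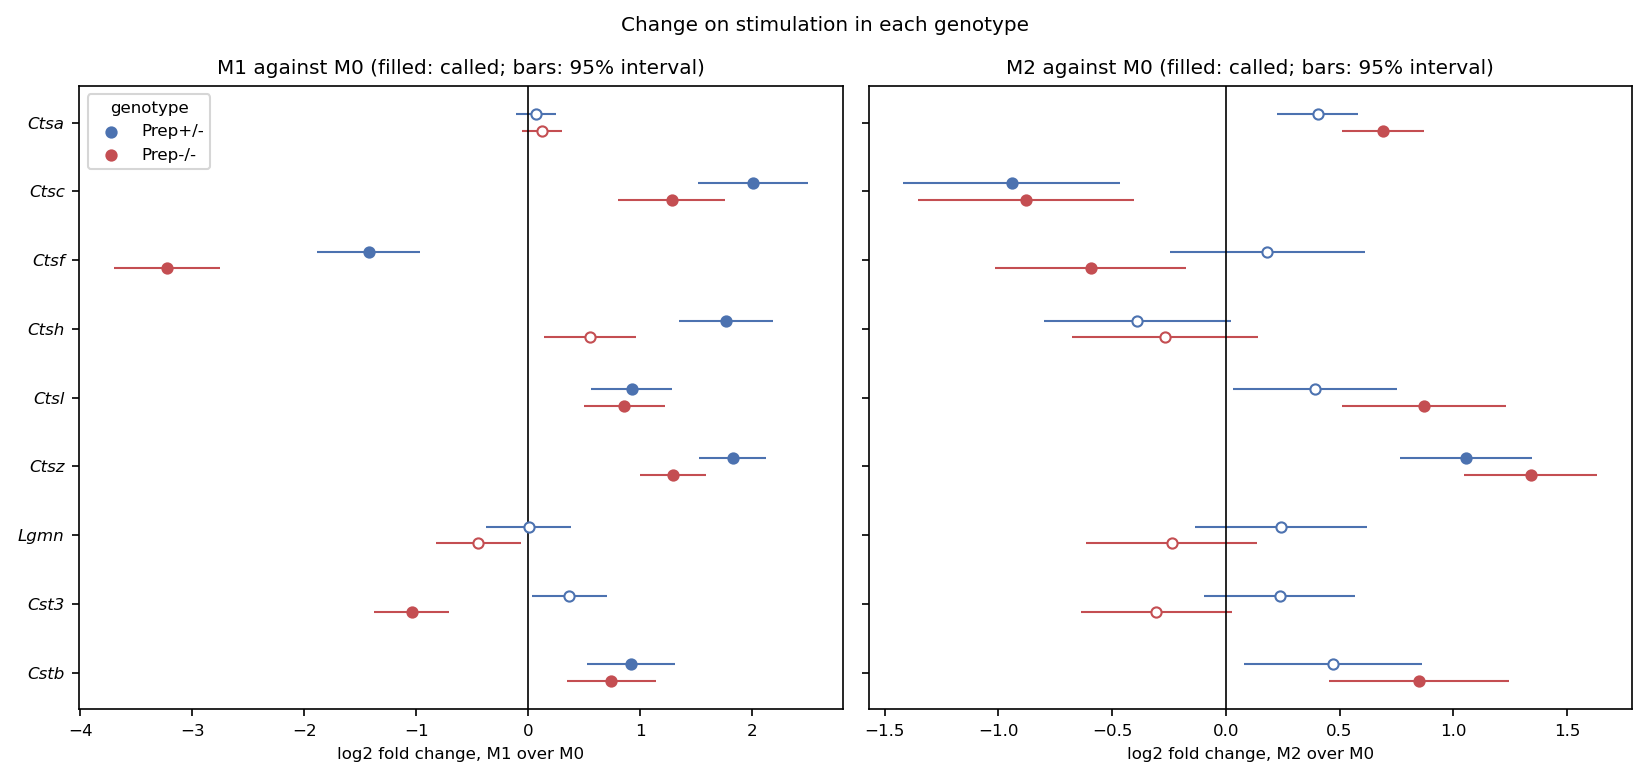
Log2 fold change of M1 over M0 (left) and of M2 over M0 (right) for each gene but *Ctse* (rows) in *Prep*+/- and *Prep*-/- BMDMs, with 95% intervals from the fit to all 18 libraries. Filled points passed both criteria. In M1, *Cst3* lay at 0.37 in *Prep*+/- and at -1.04 in *Prep*-/- BMDMs, and *Ctsf* was lower than in M0 in both. In M2, *Ctsz* was higher than in M0 in both genotypes and *Ctsc* was lower in both.

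Among the exopeptidases, *Ctsc* rose on LPS by 2.01 ± 0.23 on the log2 scale in *Prep*+/- (adjusted p = 1.75e-06) and by 1.28 ± 0.23 in *Prep*-/- BMDMs (adjusted p = 1.42e-04). *Ctsh* rose by 1.77 ± 0.20 in *Prep*+/- (adjusted p = 1.38e-06). From its higher start in *Prep*-/- M0, its difference of 0.55 ± 0.19 in *Prep*-/- cells (adjusted p = 0.0225) was under the fold criterion and passed it without *Prep*-/- M0 replicate 1 (0.80). *Ctsz* rose by 1.83 ± 0.14 (adjusted p = 2.25e-08) and by 1.29 ± 0.14 (adjusted p = 8.43e-07). In M2 *Ctsz* rose by 1.06 ± 0.14 in *Prep*+/- (adjusted p = 3.40e-05) and 1.34 ± 0.14 in *Prep*-/- cells (adjusted p = 1.10e-06), and its groups of M0 and M2 libraries did not overlap in either genotype. *Ctsc* fell in M2 by 0.94 ± 0.23 in *Prep*+/- (adjusted p = 0.00692) and by 0.88 ± 0.22 in *Prep*-/- BMDMs (adjusted p = 0.00453). The latter had an adjusted p of 0.0819 when only the libraries compared were in the fit. *Ctsa* rose in *Prep*-/- M2 (0.69 ± 0.08, adjusted p = 6.90e-06), and its *Prep*+/- M2 value of 0.40 (adjusted p = 0.00263) was under the fold criterion.

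The endopeptidases went in opposite directions on LPS. *Ctsl* rose by 0.92 ± 0.17 in *Prep*+/- (adjusted p = 2.41e-04) and by 0.86 ± 0.17 in *Prep*-/- BMDMs (adjusted p = 4.17e-04). *Ctsf* fell by 1.43 ± 0.22 on the log2 scale in *Prep*+/- (adjusted p = 3.53e-05) and had a log2 fold change of -3.23 ± 0.22 in *Prep*-/- BMDMs (adjusted p = 8.03e-09), and these calls were kept under every alternative. In *Prep*-/- M2 BMDMs, *Ctsl* rose by 0.87 ± 0.17 (adjusted p = 5.99e-04). *Ctsf* fell there by 0.59 ± 0.20 (adjusted p = 0.0230), a call lost without *Prep*-/- M0 replicate 1 (adjusted p = 0.109), without *Prep*-/- M2 replicate 3 (adjusted p = 0.0909) and with only the libraries compared (adjusted p = 0.125). *Ctse* was at 0 to 2 counts in the *Prep*+/- M1 libraries, where M0 libraries had 4 to 15. In the *Prep*-/- M1 libraries it was at 0 to 4 counts, where M0 libraries had 17 to 33.

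*Lgmn* stayed near its M0 level on LPS in *Prep*+/- BMDMs (0.00 ± 0.18, 95% interval -0.37 to 0.38). In *Prep*-/- BMDMs the M1 value was -0.45 ± 0.18 (adjusted p = 0.0420), under the fold criterion, which it passed without *Prep*-/- M0 replicate 2 (-0.62) and without *Prep*-/- M1 replicate 1 (-0.72). *Cst3* fell by 1.04 ± 0.16 in *Prep*-/- M1 BMDMs (adjusted p = 3.47e-05), and had a value of 0.37 ± 0.16 in *Prep*+/- (adjusted p = 0.0598). *Cstb* rose on LPS by 0.92 ± 0.19 in *Prep*+/- (adjusted p = 5.75e-04) and by 0.74 ± 0.19 in *Prep*-/- BMDMs (adjusted p = 0.00277), the latter reduced to 0.52, under the fold criterion, without *Prep*-/- M0 replicate 2. In *Prep*-/- M2 BMDMs *Cstb* rose by 0.85 ± 0.19 (adjusted p = 0.00155), and its *Prep*+/- M2 value was 0.47 ± 0.19 (adjusted p = 0.0925).

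All stimulation values of *Prep*-/- BMDMs rest on a group with a library that stood apart. Without *Prep*-/- M0 replicate 3, the LPS values of the called genes were 1.08 for *Ctsc*, 1.38 for *Ctsz*, 0.96 for *Ctsl*, 1.03 for *Cstb*, -3.26 for *Ctsf* and -0.94 for *Cst3*, and all stayed called. *Ctsh* (0.37, adjusted p = 0.133) and *Lgmn* (-0.34, adjusted p = 0.134), which had met the adjusted p alone, no longer did. The M2 values without that library were 0.72 for *Ctsa*, -1.05 for *Ctsc*, -0.60 for *Ctsf*, 0.99 for *Ctsl*, 1.45 for *Ctsz* and 1.16 for *Cstb*, all called. Without *Prep*-/- M2 replicate 3 they were 0.68, -0.60, -0.38, 0.67, 1.36 and 0.79 in the same order, and the call of *Ctsf* was the only one lost.

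Whether the knockout effect differed between states was tested directly as an interaction. Relative to M0, the effect in M1 was lower for 3 of the 9 genes, *Ctsf* (-1.80 ± 0.30, adjusted p = 6.70e-04), *Cst3* (-1.41 ± 0.22, adjusted p = 3.98e-04) and *Ctsh* (-1.22 ± 0.27, adjusted p = 0.00484), at an adjusted p under 0.05 that 24.6% of all genes tested passed in either direction. For *Ctsc* (-0.73, adjusted p = 0.101), *Ctsz* (-0.53, adjusted p = 0.0537) and *Lgmn* (-0.45, adjusted p = 0.204) the difference did not pass. It passed for *Ctsc* without *Prep*-/- M0 replicate 3 (adjusted p = 0.0453), with only the libraries compared (0.0231) and with the replicate block added there (0.0415). It passed for *Ctsz* without *Prep*+/- M0 replicate 1 (0.0481) or *Prep*-/- M0 replicate 2 (0.0116) with DESeq2 (0.0194) and with RLE size factors (0.0485), and for *Lgmn* without *Prep*-/- M1 replicate 1 (0.0497). Between M2 and M0, 9.64% of all genes passed and 0 of the 9 genes did by edgeR, with 3 at an unadjusted p under 0.05 and 1 by DESeq2, *Ctsa*. *Cst3* passed without *Prep*-/- M0 replicate 2 (-0.72, adjusted p = 0.0310) and *Cstb* without *Prep*-/- M0 replicate 3 (0.71, adjusted p = 0.0282).

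Without *Prep*-/- M0 replicate 3, the M1 interactions that passed were -1.80 for *Ctsf*, -1.28 for *Cst3* and -1.37 for *Ctsh*, and those for *Ctsz* (-0.42) and *Lgmn* (-0.31) did not pass.

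The order of the groups showed which neighbours could not be separated. *Ctsc* and *Ctsh* were highest in M1, where the libraries of both genotypes overlapped, and lowest in *Prep*+/- M2. *Ctsf* was highest in *Prep*-/- M0, then in *Prep*-/- M2, with all groups apart except M0 and M2 of *Prep*+/-, whose values lay between, and both M1 groups. The 3 *Prep*-/- groups of *Lgmn* overlapped with their neighbours and lay above all *Prep*+/- libraries. *Ctsl* was highest in *Prep*+/- M1, apart from all other groups, and lowest in *Prep*-/- M0, also apart. From highest to lowest group mean, the genes spanned 9.37-fold for *Ctsf*, 7.74-fold for *Ctsc*, 4.87-fold for *Ctsh* and 3.55-fold for *Ctsz*, and 1.75-fold to 2.55-fold for *Ctsa*, *Cst3*, *Cstb*, *Lgmn* and *Ctsl*.

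Ratios of a protease to an inhibitor transcript, chosen after their values were seen from 5 ratios computed, are given as a description. The *Lgmn* to *Cst3* ratio of normalized counts was 0.793 to 0.987 in *Prep*+/- M1 and 1.57 to 2.26 in *Prep*-/- M1 libraries. The genotypes overlapped in M0 (1.08 to 1.18 against 1.11 to 1.33) and in M2 (1.07 to 1.24 against 1.01 to 1.46). The *Ctsl* to *Cst3* ratio was 2.57 to 3.55 in *Prep*+/- M0 and 1.09 to 1.15 in *Prep*-/- M0 libraries. In M1 it was 4.36 to 5.01 against 3.95 to 4.49, where the genotypes overlapped, and in M2 3.36 to 3.69 against 2.21 to 3.05, without overlap. The *Ctsh* to *Cstb* ratio was 0.209 to 0.234 against 0.345 to 0.943 in M0 and 0.108 to 0.132 against 0.187 to 0.357 in M2. In M1 it was 0.336 to 0.452 against 0.496 to 0.614, so that the genotypes were apart in every state. For *Ctsl* to *Cstb* the genotypes overlapped in every state. That ratio was 4.64 to 6.59 against 3.95 to 5.75 in M0 and 4.95 to 6.05 against 4.66 to 5.40 in M1. In M2 it was 5.08 to 5.58 against 4.20 to 5.63. A count ratio of different genes also carries their lengths, so that only its differences between groups can be read.

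**Figure D4:**
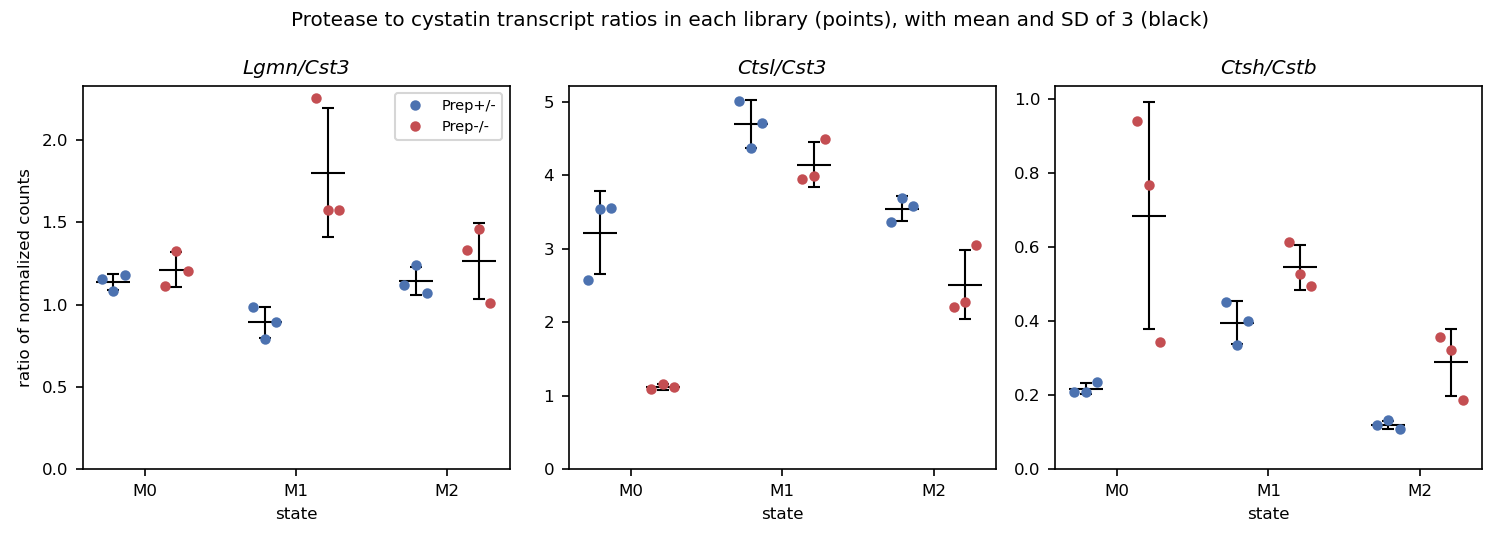
Ratio of normalized counts of a protease gene to a cystatin gene (vertical axis, from 0) in each library (points), by state and genotype, with the mean and SD of 3 libraries in black. For *Lgmn* over *Cst3* the genotypes were farthest apart in M1, and for *Ctsl* over *Cst3* in M0.

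Within groups, members also varied together from library to library. Of the 45 pairs, 4 had a Pearson correlation over 0.8 of their log2 deviations from the group means over the 18 libraries: *Ctsz* and *Cst3* (0.90), *Ctsc* and *Ctsh* (0.82), *Cst3* and *Cstb* (0.82), and *Ctsz* and *Cstb* (0.81). The points share libraries and their scaling, so this is a description. In the *Prep*-/- M0 group, replicate 2 held the lowest value of 6 members, *Ctsf*, *Ctsl*, *Ctsz*, *Lgmn*, *Cst3* and *Cstb*, while *Ctsc*, *Ctse* and *Ctsh* were lowest in replicate 3. In the *Prep*-/- M2 group, replicate 3 was lowest for 5, *Ctsc*, *Ctse*, *Ctsf*, *Ctsh* and *Lgmn*, and highest for *Ctsl* and *Cstb*.

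Over the 18 libraries, the genes whose log2 CPM followed each member most closely were *Ctsk* (Pearson's r = 0.96) and *Cipc* (0.96) for *Ctsa*, *Ikbke* (0.98) and *Cybb* (0.98) for *Ctsc*, *Cd300a* (0.98) and *Slc26a11* (0.98) for *Ctsf*, and *Gbp4* (0.97) and *Cyria* (0.97) for *Ctsh*. They were *Rpf2* (0.96) and *Ube2k* (0.96) for *Ctsl*, *Syvn1* (0.97) and *Atp1b3* (0.97) for *Ctsz*, *Tcn2* (0.96) and *Pigc* (0.95) for *Lgmn*, *Scamp2* (0.94, second in rank) for *Cst3*, and *Psmb6* (0.98) and *Atp6v1e1* (0.98) for *Cstb*. For *Ctse*, at a few counts a library, they were *Natd1* (0.92) and *Zfp787* (0.92). The libraries fall into 6 groups that these genes share, and the best of 12021 genes is always high.

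Genes of the same pathway were read from lists of 38 further genes, 34 of them in the table and 26 tested. Of the 26, 8 were higher in *Prep*-/- M0 BMDMs and 4 were lower, where 15.4% of all genes tested were higher and 17.2% lower. In M1 BMDMs 4 were higher against 3 that were lower (12.3% and 10.2% of all genes). In M2 BMDMs it was 8 against 3 (6.37% and 9.82%). The M1 counts and the counts of lower genes lay near these shares, which also apply to each list below. Other cathepsins were higher for 2 of 5 in M0 (median 0.42), 0 of 5 in M1 (median 0.38, with 3 of them at an adjusted p under 0.05 and under the fold criterion) and 4 of 5 in M2 (median 0.76). The study named several of these from the same samples, so they are not independent evidence of direction. *Ctsk*, the collagen-degrading cathepsin K, had a mean of 467 ± 48 normalized counts (SD, n = 3) in *Prep*+/- M2 and 985 ± 48 in *Prep*-/- M2 BMDMs (1.08, adjusted p = 1.66e-04). *Ctss*, an endopeptidase of antigen processing, was higher by 0.94 in both M0 (adjusted p = 2.15e-04) and M2 (adjusted p = 5.55e-04). *Ctso* was higher in M0 (0.68, adjusted p = 1.35e-05).

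Other cystatins and stefins went down in part, with 3 of 9 tested. *Cst7*, the gene of cystatin F, an inhibitor of cathepsin C, was 23.7 ± 2.27 normalized counts in *Prep*+/- M0 and 10.04 ± 5.18 in *Prep*-/- M0. Its M1 level was 169 ± 11.3 against 325 ± 63.7 for *Prep*-/-, and its M2 level 452 ± 19.4 against 198 ± 25.7. It was thus lower in M0 (-1.25, adjusted p = 0.00250) and M2 (-1.19, adjusted p = 2.89e-04) and higher in M1 (0.95, adjusted p = 0.00174), and the M1 and M0 effects differed (2.19, adjusted p = 4.57e-04). The stefin genes *Stfa3* and *Csta2* hardly appear outside M1. *Csta2* was lower in *Prep*-/- M1 BMDMs, with 71.7 ± 12.7 against 472 ± 121 normalized counts (-2.72, adjusted p = 2.52e-04). *Stfa3* was at 0 to 6 counts in the *Prep*-/- M1 libraries, with means of 3.57 ± 3.26 against 170.4 ± 64.8 normalized counts. It passed the filter on low counts only through *Prep*+/- M1, so it had to differ, and no test is given. The M1 count of lower list genes above includes it. Stefins are near-identical copies of each other, so reads may have been divided among them.

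Of 5 other protease inhibitors that act on cathepsins, 3 were higher in *Prep*-/- M0 and 1 was lower (median 0.90). In M1 (median -0.46) 1 was higher and 1 was lower, while M2 (median 0.26) had 1 higher gene against 2 lower genes. *Serpina3g* had 0 to 3 counts in the *Prep*+/- M0 libraries, too few for more than a lower bound of the fold. The *Prep*-/- M0 libraries held 7 to 66 counts, and their mean was at least 12.4 times the level of 3 counts. *Serpina3g* was higher by 2.32 in M1 (adjusted p = 0.00239) and by 1.95 in M2 (adjusted p = 0.00881). *Ctla2b* was higher in M0 (0.86, adjusted p = 3.84e-04) and lower in M1 (-1.26, adjusted p = 8.37e-05) and M2 (-1.71, adjusted p = 1.23e-05). *Serpinb1a* was lower in M0 (-1.11, adjusted p = 0.00782) and M2 (-1.23, adjusted p = 0.00394).

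Other lysosomal proteases were higher for 3 of 5 in M0 (median 0.61), 1 of 5 in M1 (median 0.42) and 3 of 5 in M2 (median 0.76). *Prcp*, which removes a residue after proline, was 1395 ± 98 in *Prep*+/- and 5158 ± 410 normalized counts in *Prep*-/- M0 BMDMs (1.89, adjusted p = 2.61e-08), and its M2 effect was 1.07 (adjusted p = 1.06e-05). *Scpep1* was higher in M0 (0.64, adjusted p = 4.99e-04), M1 (0.84, adjusted p = 2.13e-04) and M2 (0.96, adjusted p = 6.04e-05), while *Dpp7*, a dipeptidyl peptidase, had values under the fold criterion in M0 (-0.47, adjusted p = 0.00181) and M2 (0.35, adjusted p = 0.0218) and rose on IL-4 and IL-13 by 0.97 in *Prep*+/- (adjusted p = 5.32e-06) and 1.79 in *Prep*-/- BMDMs (adjusted p = 2.48e-09). The partners of cathepsin A, *Neu1* and *Glb1*, passed in 0 of the 3 states (median 0.30 for M0, 0.08 for M1, 0.18 for M2), and *Neu1* rose on LPS by 0.83 in *Prep*+/- (adjusted p = 7.18e-06) and 0.63 in *Prep*-/- BMDMs (adjusted p = 1.16e-04). Of 4 serine proteases that cathepsin C activates, 2 were in the table and 0 were tested.

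The genes that tag and sort lysosomal enzymes through mannose 6-phosphate or sortilin fell for 2 of 6 in *Prep*-/- M0 (median -0.32), rose for 1 in M1 (median -0.16) and passed for 0 in M2 (median 0.09). *Gnptab*, a subunit of the enzyme that adds the tag, was 1780 ± 254 in *Prep*+/- and 665 ± 193 normalized counts in *Prep*-/- M0 BMDMs (-1.42, adjusted p = 6.62e-05). *Igf2r*, the large mannose 6-phosphate receptor, was 2946 ± 271 and 1496 ± 164 (-0.98, adjusted p = 3.21e-04). *Sort1*, the sortilin gene, was higher in *Prep*-/- M1 BMDMs (0.90, adjusted p = 0.00655). For *Gnptab* and *Igf2r* the knockout effect differed from that in M0 both in M1 (1.56, adjusted p = 0.00169, and 0.71, adjusted p = 0.0471) and in M2 (1.25, adjusted p = 0.0170, and 1.37, adjusted p = 0.00415).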

How the data were processed

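RNA of 18 BMDM cultures was sequenced after a TruSeq Stranded mRNA preparation. The authors trimmed reads with Trimmomatic 0.36 and aligned them to GRCm39 with HISAT2 2.2.1.0 (versions from the submitters' processing notes), and deposited raw counts per gene symbol, 16314 symbols in all, without pooling replicates. The annotation release, the strand setting and the treatment of reads that match several genes are not given in the sources used here. Groups were taken from the sample labels, with 0 columns left unmapped and 0 rows that name no gene.

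The 10 members and all gene lists were chosen with earlier results of these data known. Counts were tested with edgeR 4.0.16 (limma 3.58.1, R 4.3.3): TMM factors (0.818 to 1.20), filterByExpr on the 6 groups, which left 12021 genes, and the quasi-likelihood test with 1 coefficient per group over all 18 libraries. Benjamini-Hochberg adjustment covered all 12021 genes. Calls needed both a fold change over 1.5 and an adjusted p under 0.05, interactions only the latter. The floor was 3 counts per library. *Ctse*, which passed the filter only through *Prep*-/- groups, is given no call, a choice made after its values were seen. DESeq2 1.42.0 and the other settings given in the closing section were alternatives. The fit was tested on simulated data. Library totals of 19068237 to 22598279 counts make counting error small for all members but *Ctse* and, in M1, *Ctsf*. In M1 *Ctsf* held 108 to 120 counts per library in *Prep*+/- and 87 to 118 in *Prep*-/-. The study describes the replicates as biological, while the labels only number them. Whether cultures with the same number come from the same mouse is not given in the sources used here.

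List genes were named when called in at least 1 comparison, at most 3 per list by the largest absolute log2 fold change. Of the genes most like each member, 1 is not reported here. Marker lists covered macrophages, granulocyte precursors, erythroid cells, B cells, T cells, dendritic cells, stromal cells, and mast cells with basophils. Gene positions and transcript lengths came from GENCODE on GRCm39, and promoter windows from RefSeq (GRCm38.p6). Coding sequences were compared with blastn 2.17.0. The replicate numbers were taken to pair libraries where all same-numbered deviations from the group means correlated over 0.1. This held for the knockout comparison in M2 (0.25, 0.26 and 0.46) and for M1 against M0 in *Prep*-/- BMDMs (0.20, 0.17 and 0.26).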

Additional observations from a re-analysis of the deposited data

Results flagged for a closer look

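The knockout effect differed between M1 and M0 by the interaction test for *Ctsf*, *Ctsh* and *Cst3* (edgeR's quasi-likelihood test). For *Ctsf* the effect was 1.55 in M0 and -0.25 in M1, a difference of -1.80 that ranged from -1.94 to -1.65 when each library was left out in turn. For *Ctsh* it was 1.34 and 0.13, a difference of -1.22 with a range of -1.37 to -0.97. For *Cst3* it was 1.09 and -0.32, a difference of -1.41 with a range of -1.60 to -1.28. All 3 differences share the M0 libraries, 1 of which stood apart from its group, and without it they were -1.80, -1.37 and -1.28. The summed macrophage markers also went from higher in *Prep*-/- M0 to lower in *Prep*-/- M1 libraries, and their part in these differences was not tested.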

How the results depend on the processing

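Of 34 calls on the 9 genes other than *Ctse*, 19 were kept under all alternatives and 15 were lost in at least 1. Counts of called members in this part leave out *Ctse*, a choice made after the data were seen. By CPM in place of CPM per kb, 4 of the 10 genes kept their rank. When the fold change was tested against 1.5 (glmTreat), members higher in *Prep*-/- went to 4 in M0, 0 in M1 and 1 in M2. Members raised on LPS went to 4 in *Prep*+/- and 2 in *Prep*-/-. On IL-4 and IL-13, members lowered in *Prep*+/- went to 0, raised in *Prep*-/- to 1 and lowered in *Prep*-/- to 0. With the adjusted p alone, 1 member was lower in M0, 1 lower in M1, and 2 rose on IL-4 and IL-13 in *Prep*+/-. With only the libraries compared, 3 members were higher in *Prep*-/- M2 and 0 fell on IL-4 and IL-13 in *Prep*-/-. With the replicate block added these counts were 4 and 1. The interaction of M2 with M0 gave 1 call by DESeq2 and 1 with the replicate block over all libraries. The cause of these changes was not tested.

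With libraries left out in turn, members higher in *Prep*-/- M1 ranged from 0 to 1, and members lower in *Prep*-/- M1 from 0 to 1. Members higher in *Prep*-/- M2 ranged from 1 to 5, or from 2 to 6 with *Ctse* counted. Members lowered on IL-4 and IL-13 in *Prep*-/- ranged from 1 to 2, and calls in the interaction of M2 with M0 from 0 to 1. Uncalled values that changed sign included the *Prep*-/- effects of *Cstb* in M0 (-0.51 to 0.00523) and *Ctsl* in M2 (-0.12 to 0.20). The LPS effect of *Lgmn* in *Prep*+/- also changed sign (-0.0665 to 0.0903). So did the interactions of M1 with M0 for *Cstb* (-0.37 to 0.14), *Ctsa* (-0.00633 to 0.0914) and *Ctsl* (-0.24 to 0.0665). Those of M2 with M0 did so for *Ctsc* (-0.12 to 0.36) and *Ctsh* (-0.11 to 0.37). The fitted interaction of M1 with M0 for *Ctse* ran from -1.34 to 0.14. It cannot be read as a fold, because the M1 libraries held 0 to 2 counts of *Ctse* in *Prep*+/- and 0 to 4 in *Prep*-/-.

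In the comparisons where replicate numbers paired the libraries, the block over all 18 libraries changed no call. With only the M2 libraries, the knockout call of *Ctsf* was lost without the block (adjusted p = 0.0518) and made with it (0.0160), and that of *Ctsc* was lost without it (0.115) and with it (0.0675). Elsewhere, blocked fits to only the libraries compared lost the calls of *Ctsc* in M0 (adjusted p = 0.0742) and of *Ctsf* on IL-4 and IL-13 in *Prep*-/- (0.110). *Ctse* is limited by its depth of at most 50 counts per library.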
